A study of Homo sapiens with 8 samples.

Results

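The comparison described here set FTC-133 cells carrying an NR1D1 vector against FTC-133 cells carrying an empty vector, with 1 RNA-seq library for each. FTC-133 is a human follicular thyroid carcinoma line grown from a lymph node metastasis, and the labels give its genotype as NR1D1 overexpression in one library and as WT in the other. These are 2 of the 8 libraries of a study of NR1D1 in 4 thyroid cancer cell lines. TPC-1, a papillary thyroid carcinoma line with the same vector labels, is used for comparison, again with 1 library for each vector. The labels do not say which promoter drives the vector, which NR1D1 exons it carries, whether a pool or a clone was used, or when RNA was taken. With 1 library per vector there was no test and no p-value, and any difference between the vectors cannot be told apart from a difference between 2 cultures. Differences are given as values of both libraries and as a log2 ratio of TPM + 1, and intervals on a ratio are 95% exact intervals from recovered read numbers that cover counting error only.

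The product of NR1D1, REV-ERB alpha, belongs to the nuclear receptors, binds heme and represses transcription. It sits on ROR elements in DNA, where it competes with the ROR activators and brings in a corepressor complex that holds NCOR1 and the histone deacetylase HDAC3. Its best known targets are clock genes such as BMAL1, CLOCK, NPAS2, NFIL3 and CRY1, and its own gene is driven by the CLOCK and BMAL1 pair through E-boxes, so the receptor closes a loop of the circadian clock.

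The FTC-133 libraries held 16109681 recovered reads with the NR1D1 vector and 16640223 with the empty vector, over 23968 and 23511 genes above 0. Mitochondrial transcripts made up 15.7% of TPM with the NR1D1 vector and 17.4% with the empty vector. Both libraries had the thyroid transcription factors PAX8, at 125 TPM with the NR1D1 vector and 78.9 TPM with the empty vector, and NKX2-1, at 22.0 and 14.2 TPM in the same order. Of 22 thyroid differentiation genes, 6 were measured at a mean of at least 5 TPM, and 14 were under 1 TPM in both libraries, among them thyroglobulin (TG), the iodide transporter SLC5A5 and the factor FOXE1. None of the listed endothelial, immune or muscle markers was measured. Of the fibroblast markers PDGFRA was at 0 in both libraries and COL3A1 had 0.107 TPM with the NR1D1 vector and 0 with the empty vector, while COL1A1, COL1A2, LUM and THY1 were measured.

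NR1D1 itself, which checks the labels, had 137 TPM with the NR1D1 vector and 105 TPM with the empty vector, from 1562 and 1265 recovered reads. That is a ratio of 1.30 (counting interval 1.21 to 1.40) and a log2 ratio of 0.37. Of the measured protein-coding genes, 43.2% differed by as much or more between these libraries, so the targeted gene does not stand apart from them in size. THRA, which encodes a thyroid hormone receptor and overlaps NR1D1 by 1081 bases on the opposite strand, had 33.4 TPM with the NR1D1 vector and 34.1 TPM with the empty vector. Whether counting used strand is not stated in the labels, so reads in the overlap cannot be assigned between NR1D1 and THRA. A vector that lacks the untranslated ends of the mRNA would add reads to only some of the NR1D1 exons, which was not tested.

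No clock gene was 2-fold or more different between the vectors, and genes on the activating side of the loop had lower values with the NR1D1 vector, by amounts that many genes showed. BMAL1, the best known target, had 3.25 TPM with the NR1D1 vector and 4.84 TPM with the empty vector, below the level filter used elsewhere. Its ratio was 0.671 (0.510 to 0.881), from 90 and 141 reads, and 34.2% of measured genes differed by as much or more. NPAS2, a partner of BMAL1, had 7.03 TPM with the NR1D1 vector and 11.1 TPM with the empty vector, and CLOCK, its main partner, had 7.98 and 11.1 TPM in the same order. The whole dimer pair was thus lower, by 0.43 to 0.59 on the log2 scale in its measured members. NFIL3, a repressor at D-boxes, was also lower, at 133 TPM with the NR1D1 vector and 176 TPM with the empty vector. CRY1, a repressor of CLOCK and BMAL1 that also carries ROR elements, went the other way, with 33.5 TPM in cells with the NR1D1 vector and 25.2 TPM in cells with the empty vector. Over the 6 measured clock genes with ROR elements the median log2 ratio was -0.40, with 4 below 0, beside a median of 0.05 over all measured genes. At a mean of at least 10 TPM, which leaves out CLOCK and NPAS2, the list median was 0.37.

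Of the ROR receptors, which activate through the same elements, RORA had 0 TPM with the NR1D1 vector and 0.312 TPM with the empty vector, and RORB was at 0 in both. NR1D2, which encodes the paralog REV-ERB beta, had 26.7 TPM with the NR1D1 vector and 30.9 TPM with the empty vector. The elements that bear on this loop follow as RefSeq gives them (GRCh38.p14), in lower case with the element in capitals. BMAL1 carries the full ROR element just after its RefSeq start (chr11:13277806-13277835, the plus strand, bases 17 to 46 from the start, the element at bases 27 to 37), which is shown because it is the known REV-ERB target site. TEF (chr22:41367235-41367294, the plus strand) and PER1 (chr17:8152525-8152604, the minus strand) carry the E-box CACGTG before their starts, at bases 195 to 190 and 173 to 168 before the start, and in PER1 the reverse complement of the receptor core site AGGTCA is also in capitals.
BMAL1: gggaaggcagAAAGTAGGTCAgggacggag
TEF: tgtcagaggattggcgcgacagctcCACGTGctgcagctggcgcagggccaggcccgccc
PER1: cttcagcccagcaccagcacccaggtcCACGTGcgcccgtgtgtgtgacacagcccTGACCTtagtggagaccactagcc

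Clock genes driven through E-boxes and D-boxes did not move together. TEF, an activator at D-boxes, had 9.45 TPM with the NR1D1 vector and 19.9 TPM with the empty vector, which falls just short of 2-fold and is past it with a pseudocount of 0.1, with trimmed-mean scaling, or with the median log2 ratio of the measured genes in its 10 Mb window of the genome subtracted. DBP, of the same family, had 5.23 TPM with the NR1D1 vector and 7.87 TPM with the empty vector, and HLF, the third of that family, was at 0 in both. The D-box activators were therefore lower where they were seen at all. Of the period and cryptochrome repressors PER1 had 20.4 TPM with the NR1D1 vector and 17.1 TPM with the empty vector, a ratio of 1.19 (1.06 to 1.34). PER3 had 15.4 TPM with the NR1D1 vector and 13.2 TPM with the empty vector, in a stretch of chromosome 1 with a median log2 ratio of 0.62, and its own log2 ratio of 0.21 became -0.41 once that median was subtracted. CRY2 had 15 TPM with the NR1D1 vector and 13.8 TPM with the empty vector, with a counting interval of the ratio (0.941 to 1.26) that includes 1, and PER2 was near 2 TPM in both. BHLHE40, an E-box repressor, had the largest positive log2 ratio of the list, 0.64, with 799 TPM with the NR1D1 vector and 514 TPM with the empty vector. Its relative BHLHE41 had 120 TPM with the NR1D1 vector and 92.5 TPM with the empty vector. Of the 9 measured members 6 were above 0 and 3 below, against 54.4% above 0 over all measured genes, and the list median of 0.20 turned to -0.04 once window medians were subtracted. The clock kinases and ligases had a median of 0.01 over 6 genes, 3 above 0 and 3 below, with the kinase gene CSNK1E highest at 0.50.

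**Figure D1:**
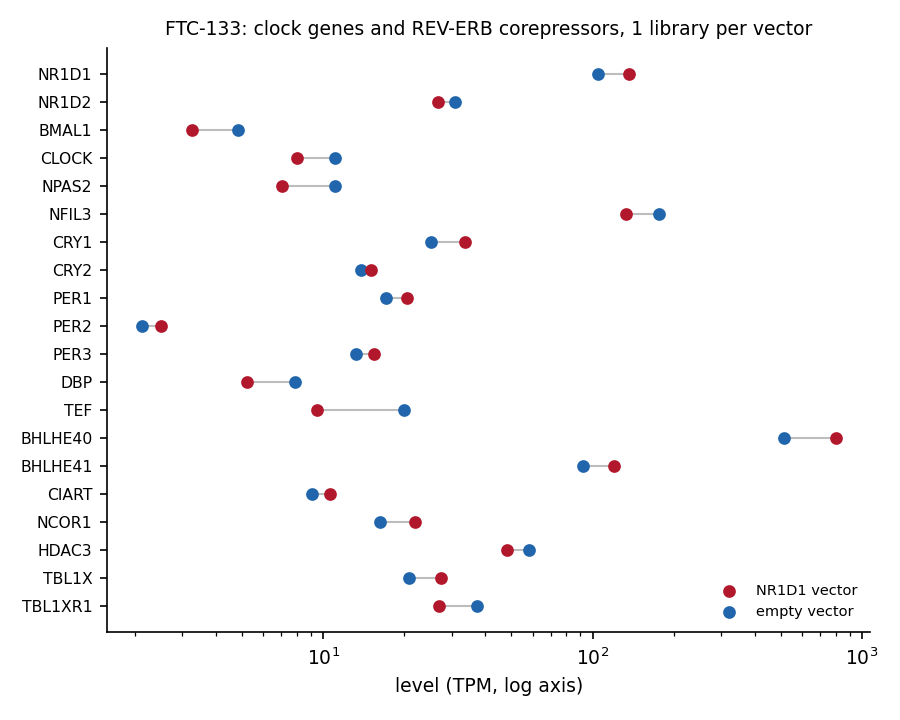
Levels of clock genes and REV-ERB corepressor genes in FTC-133 (TPM, log axis), with 1 point for the NR1D1 vector library and 1 for the empty vector library of each gene and a line joining them. BMAL1, CLOCK, NPAS2, NFIL3, DBP and TEF lie lower with the NR1D1 vector, while CRY1, BHLHE40 and BHLHE41 lie higher, and no pair is 2-fold apart on the log2 scale of TPM + 1.

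The corepressor through which REV-ERB alpha acts was present with both vectors. NCOR1 had 21.9 TPM with the NR1D1 vector and 16.3 TPM with the empty vector, and HDAC3 had 48.2 and 58.3 TPM. The scaffold genes TBL1X, with 27.4 TPM with the NR1D1 vector and 20.8 TPM with the empty vector, and TBL1XR1, with 27.0 and 37.1 TPM, differed in opposite directions. TBL1X was at -0.01 once the median of chromosome X was subtracted, because its own window held only 13 measured genes. None of the 5 measured members was 2-fold apart. Heme synthesis and breakdown genes, which make and remove the ligand of the receptor, had a median of 0.07 over 13 genes, and -0.12 with window medians subtracted. In that list the biliverdin reductase gene BLVRA was past 2-fold, at 69.9 TPM with the NR1D1 vector and 30.7 TPM with the empty vector, and it lies in a stretch of chromosome 7 whose measured genes had a median log2 ratio of 0.62.

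Outside the clock the libraries differed widely. Of 9509 protein-coding genes with a mean of at least 5 TPM, 410 were 2-fold or more higher with the NR1D1 vector (4.31%) and 270 were 2-fold or more lower (2.84%), while 92.8% were within 2-fold. At 4-fold the counts were 100 higher and 44 lower, and at 8-fold 44 higher and 19 lower. The quartiles of the log2 ratio were -0.27 and 0.36, and 54.4% of genes were above 0. Among the 2824 genes with a mean of at least 50 TPM, 94 were higher and 60 lower, so the differences were not only among genes of low level, and 4 of the genes past 2-fold had under 50 reads in both libraries. Genes next to the threshold were TPCN1 with 64.0 TPM and SNX18 with 34.3 TPM with the NR1D1 vector, against 31.5 TPM and 16.7 TPM with the empty vector, of which TPCN1 was counted and SNX18 was not. On the lower side MGST1, with 56.5 TPM with the NR1D1 vector and 114 TPM with the empty vector, was counted, and RAP2A, with 14.5 and 29.9 TPM, was not. With a pseudocount of 5 the genes MMP1, MX1, FGFR4, HBEGF, ID4, TGFB3 and ELOVL6, described further on, were within 2-fold.

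**Figure D2:**
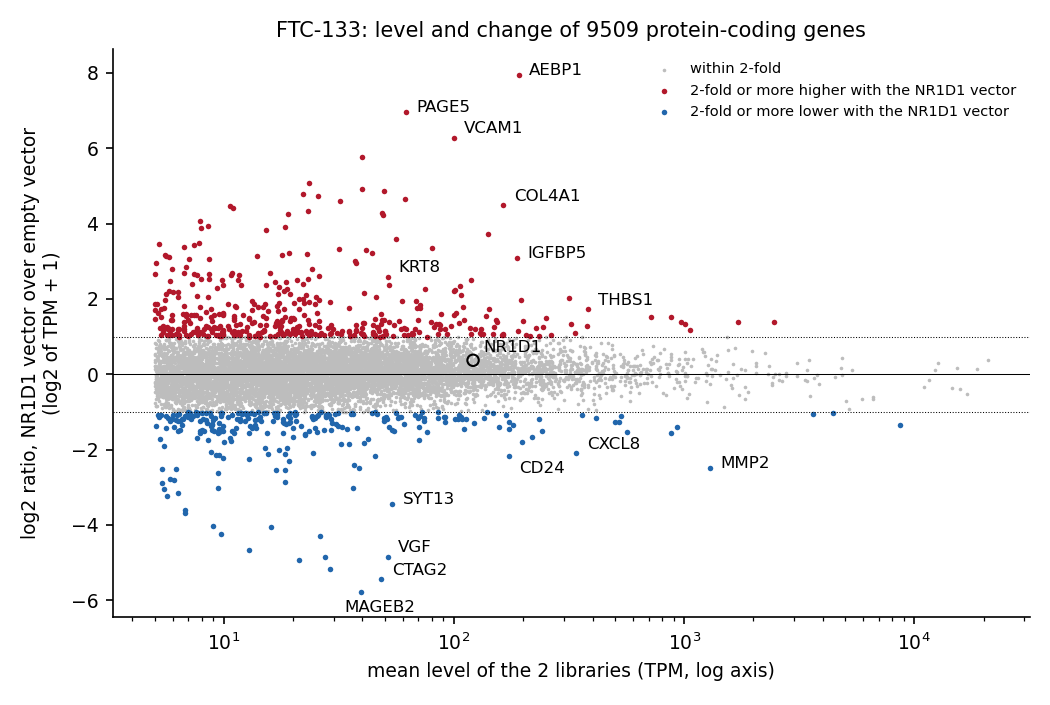
Mean level of the 2 FTC-133 libraries (TPM, log axis) against the log2 ratio of the NR1D1 vector over the empty vector for 9509 protein-coding genes, with genes past 2-fold in colour and dotted lines at 2-fold. AEBP1 is the highest point, MAGEB2 the lowest, MMP2 is the lowest of the genes at or above its own mean level, and NR1D1, circled, lies among the genes within 2-fold.

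Several genes with the largest ratios toward the NR1D1 vector encode secreted, matrix or surface proteins. AEBP1, which encodes a collagen-binding carboxypeptidase-like protein, had 381 TPM with the NR1D1 vector and 0.558 TPM with the empty vector. VCAM1, a leukocyte adhesion receptor of activated endothelium, had 198 TPM with the NR1D1 vector and 1.57 TPM with the empty vector, a ratio of 127 (93.2 to 177). Both were nearly silent without the vector, AEBP1 with 12 reads. CHRDL1, an antagonist of BMP ligands, had 46.4 TPM with the NR1D1 vector and 0.412 TPM with the empty vector, FBLN2, a fibulin of elastic fibres, had 77.9 and 1.63 TPM, and the atypical cadherin gene FAT2 had 97.3 and 2.38 TPM. The teneurin gene TENM2 had 43.5 TPM with the NR1D1 vector and 0.607 TPM with the empty vector. CEMIP, which drives hyaluronan breakdown, had 62.4 TPM with the NR1D1 vector and 1.61 TPM with the empty vector, and GJA1, which encodes connexin 43, had 21.9 and 0.0677 TPM, with a single read in the empty vector library (ratio 324, 57.7 to 12837). These genes form no single pathway. Each was under 3 TPM with the empty vector. Each therefore passed the level filter through the NR1D1 vector library alone and had to differ.

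Other genes of this group act inside the cell. DHRS3, which reduces retinal, had 119 TPM with the NR1D1 vector and 3.75 TPM with the empty vector, the cytoskeletal gene SPECC1 had 50.4 and 0.946 TPM, and ARNT2, a bHLH-PAS transcription factor that pairs with other such factors, had 45.0 and 1.28 TPM. SPECC1 and ARNT2 also passed the level filter through the NR1D1 vector library alone. DPYSL3, which acts on the neuronal cytoskeleton, was already present, at 147 TPM with the NR1D1 vector and 13.4 TPM with the empty vector. AEBP1, DHRS3, CEMIP and ARNT2 lie in stretches of chromosomes 7, 1 and 15 where the median log2 ratio of measured genes was 0.62, 0.69, 0.78 and 0.78 in that order of genes, far smaller than their own ratios of 7.94, 4.66, 4.60 and 4.33.

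**Figure D3:**
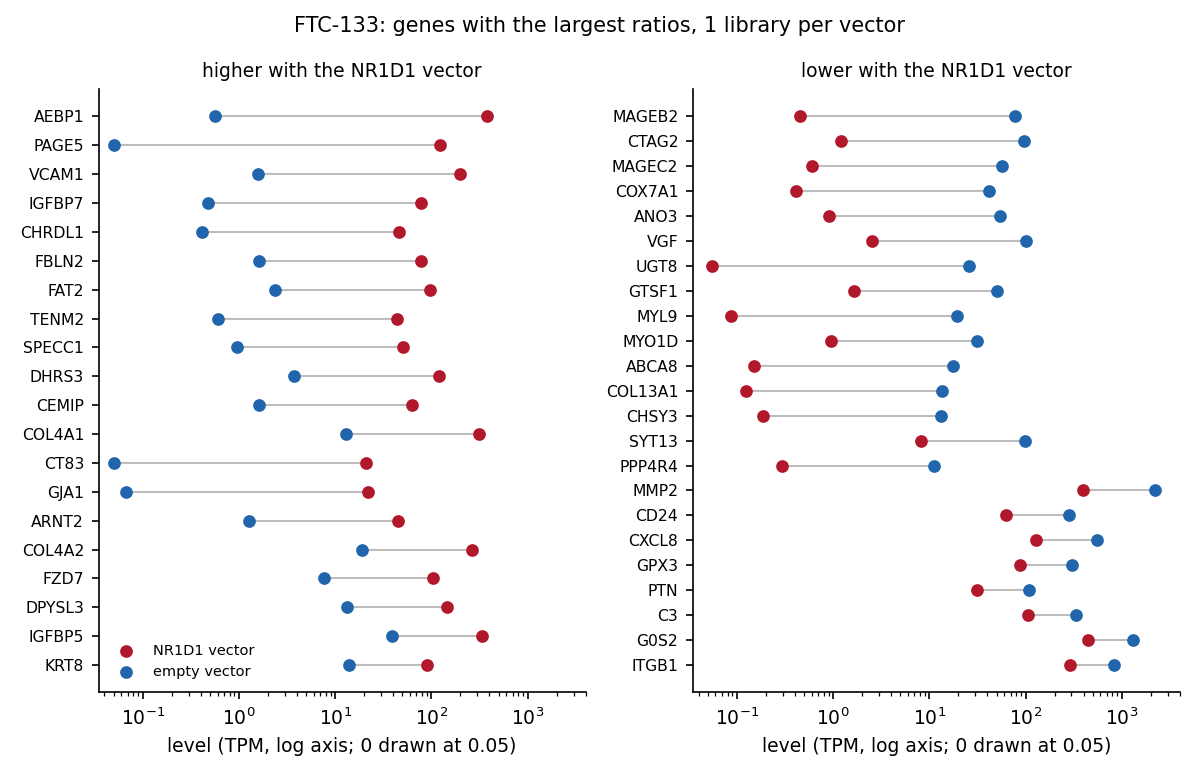
Levels in both FTC-133 libraries (TPM, log axis, values of 0 drawn at 0.05) for the genes with the largest ratios in each direction, overall and among genes with a mean of at least 50 TPM. Lines join the NR1D1 vector point and the empty vector point of a gene. Most of the genes at the top of each panel are under 3 TPM in one of the libraries, while COL4A1, COL4A2, IGFBP5, MMP2, CD24, CXCL8 and ITGB1 are well above that in both.

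The genes with the largest ratios toward the empty vector came from several kinds of cell program. VGF, a neuropeptide precursor, had 2.54 TPM with the NR1D1 vector and 101 TPM with the empty vector, and SYT13, a synaptotagmin, had 8.25 and 99.6 TPM. COX7A1, the muscle form of a respiratory chain subunit, had 0.415 TPM with the NR1D1 vector and 41.8 TPM with the empty vector. UGT8, which makes galactosylceramide, had 0.0554 TPM with the NR1D1 vector, which is a single read, and 25.8 TPM with the empty vector, a ratio of 0.00215 (5.06e-05 to 0.0112). Several of these genes were close to off with the NR1D1 vector. MYL9, a regulatory light chain of smooth muscle myosin, had 0.0865 TPM with the NR1D1 vector and 19.4 TPM with the empty vector, the motor gene MYO1D had 0.949 and 31.3 TPM, and COL13A1, a transmembrane collagen, had 0.124 and 13.4 TPM. The anoctamin gene ANO3 had 0.902 TPM with the NR1D1 vector and 54.0 TPM with the empty vector, and the transporter gene ABCA8 had 0.151 and 17.8 TPM. Of all measured genes, 26 were under 0.5 TPM in one library, 10 of them in the NR1D1 vector library and 16 in the empty vector library. Such genes passed the level filter through 1 library alone and so had to differ. The same holds for VGF, MYO1D and ANO3, which passed through the empty vector library alone.

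Cancer-testis genes, which are normally silent outside the germ line and lie mostly on the X chromosome, were among the extremes in both directions. They were gathered by family name after their values had been seen. PAGE5 had 124 TPM with the NR1D1 vector and 0 with the empty vector, 133-fold higher when set against a floor of 3 reads. CT83 had 21.1 TPM and 0, 16.7-fold higher against that floor. The counting intervals of these ratios had lower limits of 108 and 13.2. MAGEB2 had 0.454 TPM with the NR1D1 vector and 78.2 TPM with the empty vector, a ratio of 0.00580 (0.00119 to 0.0170) from 3 and 545 reads. CTAG2, a relative of NY-ESO-1, had 1.22 TPM with the NR1D1 vector and 95.4 TPM with the empty vector, and MAGEC2 had 0.609 and 57.3 TPM. Of 95 such genes 10 were measured, with 2 past 2-fold higher and 3 lower, against 4.31% and 2.84% of all measured genes. Those past 2-fold passed the level filter through 1 library alone and so had to differ. The other 5 measured genes were within 2-fold. MAGEA1 had 53.8 TPM with the NR1D1 vector and 40.9 TPM with the empty vector, MAGEA10 had 42.5 and 35.6 TPM, and MAGEA12 had 65.9 and 42.0 TPM. MAGEA3 and MAGEA6 are near-identical copies, so their values of 85.6 and 146 TPM with the NR1D1 vector, against 104 and 108 TPM with the empty vector, are uncertain.

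The sequences just before the RefSeq starts of 3 of these genes and of VCAM1 are shown because these genes were on with one vector and close to off with the other. CpG dinucleotides, the sites of DNA methylation, are in capitals. MAGEB2 (chrX:30215413-30215562, the plus strand) has 12 of them, MAGEC2 (chrX:142205291-142205440, the minus strand) and PAGE5 (chrX:55220196-55220345, the plus strand) have 5 each, and VCAM1 (chr1:100719592-100719741, the plus strand) has 1. Methylation was not measured. Over whole promoter windows, from 250 bases before to 50 after the start, the median number of CpG was 21 for the 17 genes under 0.5 TPM in one library that had a window, 26.5 for genes 2-fold higher, 24.0 for genes 2-fold lower and 27.0 for all measured genes.
MAGEB2: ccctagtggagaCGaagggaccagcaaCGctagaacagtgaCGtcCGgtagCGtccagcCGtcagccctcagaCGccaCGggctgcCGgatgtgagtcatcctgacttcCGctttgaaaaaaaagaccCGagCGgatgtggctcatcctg
MAGEC2: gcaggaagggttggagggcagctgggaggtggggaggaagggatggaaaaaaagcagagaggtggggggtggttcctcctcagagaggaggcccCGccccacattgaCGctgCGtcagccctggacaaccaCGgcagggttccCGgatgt
PAGE5: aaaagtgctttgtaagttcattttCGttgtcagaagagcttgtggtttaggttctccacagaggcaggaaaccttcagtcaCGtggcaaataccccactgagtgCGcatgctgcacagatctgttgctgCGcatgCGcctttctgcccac
VCAM1: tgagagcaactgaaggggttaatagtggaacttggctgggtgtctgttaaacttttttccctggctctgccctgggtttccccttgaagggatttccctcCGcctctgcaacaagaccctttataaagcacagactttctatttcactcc

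Among matrix genes the basement membrane collagens stood out. COL4A1 had 315 TPM with the NR1D1 vector and 13.1 TPM with the empty vector, a ratio of 24.1 (22.5 to 25.9). COL4A2, the chain that pairs with it, had 263 TPM with the NR1D1 vector and 19.2 TPM with the empty vector, a ratio of 13.7 (13 to 14.4). The 2 genes lie head to head on chromosome 13 and are read away from each other from 1 shared promoter, and the stretch between their RefSeq starts (chr13:110307157-110307283, printed on the plus strand, GRCh38.p14) is shown with its 20 CpG dinucleotides in capitals.
COL4A2: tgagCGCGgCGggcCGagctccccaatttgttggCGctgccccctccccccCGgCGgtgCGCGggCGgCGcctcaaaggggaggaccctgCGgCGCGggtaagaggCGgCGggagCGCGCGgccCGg

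Of the 32 measured collagen and matrix genes, 10 were 2-fold or more higher with the NR1D1 vector and 2 were lower, against 4.31% and 2.84% of all measured genes, and 20 were within 2-fold. The list median was 0.45, and 0.26 with window medians subtracted. LOXL1, COL18A1 and LAMA3 passed the level filter only through the NR1D1 vector library. THBS1, a matrix glycoprotein that activates latent TGF-beta, had 586 TPM with the NR1D1 vector and 177 TPM with the empty vector. LOXL1, a lysyl oxidase of elastic fibres, had 13.8 TPM with the NR1D1 vector and 1.40 TPM with the empty vector, whereas LOX, the founding member of that family, was lower, at 293 and 706 TPM. Other members, named after their values were seen, differed within a collagen type. COL6A1 had 1405 TPM with the NR1D1 vector and 534 TPM with the empty vector, whereas its partner COL6A2 had 935 and 635 TPM. COL5A1 had 537 TPM with the NR1D1 vector and 219 TPM with the empty vector, COL5A2 had 165 and 197 TPM, and the periostin gene POSTN had 161 and 58.8 TPM. Both type I collagen genes were below 0 within 2-fold, COL1A1 with 671 TPM with the NR1D1 vector and 949 TPM with the empty vector and COL1A2 with 945 and 1570 TPM, and fibronectin (FN1) had 13684 and 17956 TPM. COL13A1 and LOX were the 2 lower members, and LOX was within 2-fold once the median of its stretch of chromosome 5 was subtracted.

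Matrix-degrading enzymes showed no common direction. MMP2, a gelatinase that cleaves type IV collagen, had 393 TPM with the NR1D1 vector and 2193 TPM with the empty vector, a ratio of 0.179 (0.175 to 0.184). The interstitial collagenase gene MMP1 had 2.83 TPM with the NR1D1 vector and 9.84 TPM with the empty vector, and ADAMTS1, which cleaves proteoglycans, had 335 and 729 TPM. PLAU, which encodes urokinase, was the single member past 2-fold in the other direction, at 1465 TPM with the NR1D1 vector and 648 TPM with the empty vector. Of the 17 measured proteases, plasminogen genes and inhibitors 1 was thus higher and 4 were lower, against 4.31% and 2.84% of all measured genes, with 8 above 0, 9 below and a median of -0.00. MMP1 passed the level filter through its empty vector library alone and so had to differ. MMP1 and ADAMTS1 were within 2-fold once window medians were subtracted. TFPI2, a matrix-bound inhibitor of plasmin, had 514 TPM with the NR1D1 vector and 1357 TPM with the empty vector.

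Cell adhesion receptors were divided. ITGB3, the beta subunit of the vitronectin receptor, had 169 TPM with the NR1D1 vector and 48.5 TPM with the empty vector, and the neural adhesion gene L1CAM had 223 and 80.8 TPM. ITGAV, the alpha subunit that pairs with ITGB3, was lower, at 43.7 TPM with the NR1D1 vector and 104 TPM with the empty vector. ITGB1, the common beta subunit of collagen and fibronectin receptors, had 289 TPM with the NR1D1 vector and 837 TPM with the empty vector. The ITGB1 gene lies in the first 40 Mb of chromosome 10, where 15 of 83 measured genes were above 0 and the median log2 ratio was -0.48, against -1.53 for ITGB1. In the list of 21 measured integrins and adhesion genes, 2 were higher and 3 lower, against 4.31% and 2.84% of all measured genes, and the median was 0.02.

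The keratin genes KRT7 and KRT8 and the junction gene CLDN1 were 2-fold or more higher with the NR1D1 vector. KRT8, a keratin of simple epithelia, had 89.3 TPM with the NR1D1 vector and 14 TPM with the empty vector, and KRT7, another, had 164 and 34.8 TPM. CLDN1, a tight junction claudin, had 35.8 TPM with the NR1D1 vector and 8.91 TPM with the empty vector, and SPINT1, a membrane inhibitor of serine proteases, had 17.3 and 2.54 TPM. These were the 4 members past 2-fold of 7 measured in an epithelial list of 27 genes, whose measured median was 1.89, beside 4.31% of all measured genes past 2-fold in this direction. SPINT1 passed the level filter through its NR1D1 vector library alone. The remaining measured members, KRT18 and the junction genes CLDN7 and TJP1, were within 2-fold, at log2 ratios of 0.72, -0.23 and 0.16. The defining epithelial genes were not among the measured members. E-cadherin (CDH1) had 0.478 TPM with the NR1D1 vector and 0.0757 TPM with the empty vector, EPCAM had 0.964 and 1.47 TPM, and the splicing regulator ESRP1 had 0 and 0.142 TPM.

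Mesenchymal genes had 2 members higher and 4 lower of 19 measured, against 4.31% and 2.84% of all measured genes, with a median of -0.09. ZEB1, a repressor of epithelial genes, had 12.6 TPM with the NR1D1 vector and 38.4 TPM with the empty vector, and SNAI2, which encodes the repressor Slug, had 107 and 229 TPM. NT5E, the surface 5'-nucleotidase CD73, had 65.5 TPM with the NR1D1 vector and 150 TPM with the empty vector, in a stretch of chromosome 6 with a median log2 ratio of -0.46. S100A4, a calcium-binding protein of motile cells, was higher, at 45.5 TPM with the NR1D1 vector and 6.59 TPM with the empty vector. VIM, which encodes vimentin, had 2847 TPM with the NR1D1 vector and 4217 TPM with the empty vector, so the mesenchymal filament stayed far above the keratins with both vectors. Like ITGB1, ZEB1 lies on the short arm of chromosome 10. S100A2 and S100A3 followed S100A4, at 312 and 17.9 TPM with the NR1D1 vector, against 78.3 and 4.39 TPM with the empty vector, and the other 5 measured S100 genes were within 2-fold. That is 3 of 8 higher, against 4.31% of all measured genes, and S100A3 passed the level filter through its NR1D1 vector library alone.

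Insulin-like growth factor binding proteins, which hold IGFs outside the cell, had the highest list median, 2.35 over 5 measured genes, with 3 past 2-fold in a direction in which 4.31% of all measured genes were. IGFBP5 had 338 TPM with the NR1D1 vector and 38.8 TPM with the empty vector, a ratio of 8.71 (8.18 to 9.29). IGFBP3 had 178 TPM with the NR1D1 vector and 34.0 TPM with the empty vector, and IGFBP7, a relative found in vessel basement membranes, had 78.9 and 0.479 TPM. IGFBP7 passed the level filter through its NR1D1 vector library alone. The most abundant member barely differed, since IGFBP4 had 1046 TPM with the NR1D1 vector and 862 TPM with the empty vector, and IGFBP6 had 110 and 119 TPM.

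Genes of the Notch pathway, in which a ligand on one cell makes a receptor on its neighbour release a transcription activator, lay on 1 side. All 8 measured members were above 0 and 4 were past 2-fold, against 54.4% and 4.31% of all measured genes. The list median was 1.12. Among the receptors NOTCH2 had 206 TPM with the NR1D1 vector and 69.7 TPM with the empty vector, and NOTCH1 and NOTCH3 had log2 ratios of 0.88 and 0.98. The ligand gene JAG1 had 119 TPM with the NR1D1 vector and 47.3 TPM with the empty vector. Of the target genes HES1 had 132 TPM with the NR1D1 vector and 42.8 TPM with the empty vector, and HES4 had 116 and 47.7 TPM. NOTCH2 and HES4 lie on chromosome 1 where neighbouring genes had medians of 0.50 and 0.62, and after the median of each gene's stretch was subtracted the list median was 0.72 and HES4 was no longer past 2-fold.

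Targets of the Hippo pathway effectors YAP and TAZ had 3 members higher and 1 lower of 18 measured, against 4.31% and 2.84% of all measured genes, with a median of 0.34. CCN1, a matricellular signal, had 3541 TPM with the NR1D1 vector and 1359 TPM with the empty vector, the muscle stress gene ANKRD1 had 74.1 and 17.3 TPM, and AMOTL2, a feedback inhibitor of YAP, had 344 and 144 TPM. CCN1 was within 2-fold once the median of its stretch of chromosome 1 was subtracted. FZD7, a Wnt receptor, had 104 TPM with the NR1D1 vector and 7.72 TPM with the empty vector. It was the single member of 9 measured Wnt genes past 2-fold, against 4.31% of all measured genes in that direction. In the TGF-beta list the ligand gene TGFB3 had 8.31 TPM with the NR1D1 vector and 2.02 TPM with the empty vector, and SMAD3, which carries the signal to the nucleus, had 72.7 and 23.5 TPM. These were 2 of 20 measured TGF-beta genes, against 4.31% of all measured genes, and the other 18 were within 2-fold. TGFB3 passed the level filter through its NR1D1 vector library alone. ID2 and ID4, inhibitors of bHLH factors induced by BMP, were lower, at 5.16 and 7.78 TPM with the NR1D1 vector, against 17 and 19.4 TPM with the empty vector.

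Receptor tyrosine kinases and their ligands had 3 members higher and 2 lower of 15 measured, against 4.31% and 2.84% of all measured genes. PDGFRB, a receptor for platelet-derived growth factor, had 18.1 TPM with the NR1D1 vector and 4.56 TPM with the empty vector, EPHA2 had 107 and 31.0 TPM, and the lymphatic growth factor gene VEGFC had 65.7 and 27.6 TPM. FGFR4 was among the lower members, at 4.44 TPM with the NR1D1 vector and 13.1 TPM with the empty vector. PDGFRB passed the level filter through its NR1D1 vector library alone, and FGFR4 through its empty vector library alone. A separate list of MAPK output and feedback genes had 2 members higher and 1 lower of 17 measured, against 4.31% and 2.84% of all measured genes. It holds EPHA2 and EGFR ligands. Of these ligands HBEGF had 25.3 TPM with the NR1D1 vector and 11.4 TPM with the empty vector, and EREG, the epiregulin gene, had 0.765 and 11.4 TPM. EREG passed the level filter through its empty vector library alone, and the ligand gene TGFA was within 2-fold.

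Antigen presentation through HLA class I had 15 of 16 measured members above 0 and 2 past 2-fold higher, against 54.4% and 4.31% of all measured genes. The median was 0.56, and 0.45 with window medians subtracted. HLA-B had 1307 TPM with the NR1D1 vector and 453 TPM with the empty vector, and HLA-F had 28.8 and 4.44 TPM. HLA-F passed the level filter through its NR1D1 vector library alone. Since HLA genes are near-identical in sequence, the values of single HLA genes are uncertain. The peptide transporter gene TAP2 had 34.6 TPM with the NR1D1 vector and 19.1 TPM with the empty vector, and the immunoproteasome gene PSMB10 had 47.8 and 23.9 TPM. B2M, the shared light chain, had 911 TPM with the NR1D1 vector and 546 TPM with the empty vector, so most of the pathway differed by less than 2-fold.

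Interferon-stimulated genes had 20 of 28 measured members above 0 and 3 past 2-fold, against 54.4% and 4.31% of all measured genes. The median was 0.49, and 0.34 with window medians subtracted. IRF1, a transcription factor that turns on HLA class I genes, had 109 TPM with the NR1D1 vector and 27.7 TPM with the empty vector. The antiviral gene IFIT3 had 71.6 TPM with the NR1D1 vector and 25.7 TPM with the empty vector, and MX1 had 28.0 and 11.7 TPM. NF-kB targets and cytokines were mixed, 3 higher and 4 lower of 22, against 4.31% and 2.84% of all measured genes. CSF1, the macrophage growth factor, had 510 TPM with the NR1D1 vector and 124 TPM with the empty vector, and TNF had 35.9 and 8.26 TPM. The neutrophil chemokine genes were lower, CXCL8 with 128 TPM with the NR1D1 vector and 552 TPM with the empty vector and CXCL6 with 124 and 357 TPM. The complement gene C3 had 105 TPM with the NR1D1 vector and 333 TPM with the empty vector.

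In the integrated stress response list 13 of 17 were above 0 and 3 past 2-fold, against 54.4% and 4.31% of all measured genes, and the median was 0.49, or 0.23 with window medians subtracted. The 3 were PHGDH, which starts serine synthesis, with 37.5 TPM with the NR1D1 vector and 9.25 TPM with the empty vector, TRIB3 with 124 and 48.4 TPM, and the amino acid transporter gene SLC7A5 with 89.4 and 41.9 TPM. Aminoacyl-tRNA synthetase genes had a median of 0.30 over 20, and 0.14 once stretch medians were subtracted. Lower genes included FTL, the ferritin light chain, with 4852 TPM with the NR1D1 vector and 12471 TPM with the empty vector. The small heat shock protein gene CRYAB had 11 TPM with the NR1D1 vector and 66.5 TPM with the empty vector, and HSP90AA1, an abundant chaperone, had 230 and 489 TPM. PDK4, which switches off pyruvate use and is known as a FOXO target, had 2.89 TPM with the NR1D1 vector and 16.1 TPM with the empty vector. GPX3, a secreted glutathione peroxidase, had 87.7 TPM with the NR1D1 vector and 306 TPM with the empty vector, and G0S2, an inhibitor of triglyceride lipase, had 441 and 1314 TPM.

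Lipid genes, which REV-ERB alpha is known to control in liver, were past 2-fold about as often as all measured genes, of which 7.15% were. Of 23 measured cholesterol genes 1 was past 2-fold, IDI1, an isomerase of the pathway, at 101 TPM with the NR1D1 vector and 258 TPM with the empty vector, and its gene also lies in the first 40 Mb of chromosome 10. Of 18 measured fatty acid and glycerolipid genes 1 was past 2-fold, the elongase gene ELOVL6, at 4.29 TPM with the NR1D1 vector and 9.91 TPM with the empty vector. ELOVL6 passed the level filter through its empty vector library alone. Hypoxia targets had a median of -0.28 over 15, with LOX lower and DDIT4, an inhibitor of mTORC1, higher, at 458 TPM with the NR1D1 vector and 183 TPM with the empty vector.

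Most housekeeping and proliferation programs were close to level. None of 36 cytosolic ribosomal protein genes was past 2-fold (median 0.06), nor any of 33 nuclear respiratory chain genes (0.01), 25 mitochondrial ribosomal protein genes (0.10), 22 proteasome genes (0.11) or 22 autophagy and lysosome genes (-0.12). With window medians subtracted the ribosomal, respiratory chain and proteasome medians were -0.01, -0.06 and -0.03. Mitosis genes had a median of 0.03 over 35, with KIF2C, a microtubule depolymerase, higher and HMMR, a spindle protein, lower. DNA replication genes had a median of -0.14 over 31, where CDKN2B, an inhibitor of CDK4 and CDK6, had 68.6 TPM with the NR1D1 vector and 157 TPM with the empty vector. Of the 50 lists with at least 5 measured members, 4 had a median of at least 0.5 or at most -0.5, and these were the IGF-binding, epithelial, Notch and HLA class I lists, all toward the NR1D1 vector. The HLA class I list was under 0.5 with trimmed-mean scaling and with window medians subtracted.

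**Figure D4:**
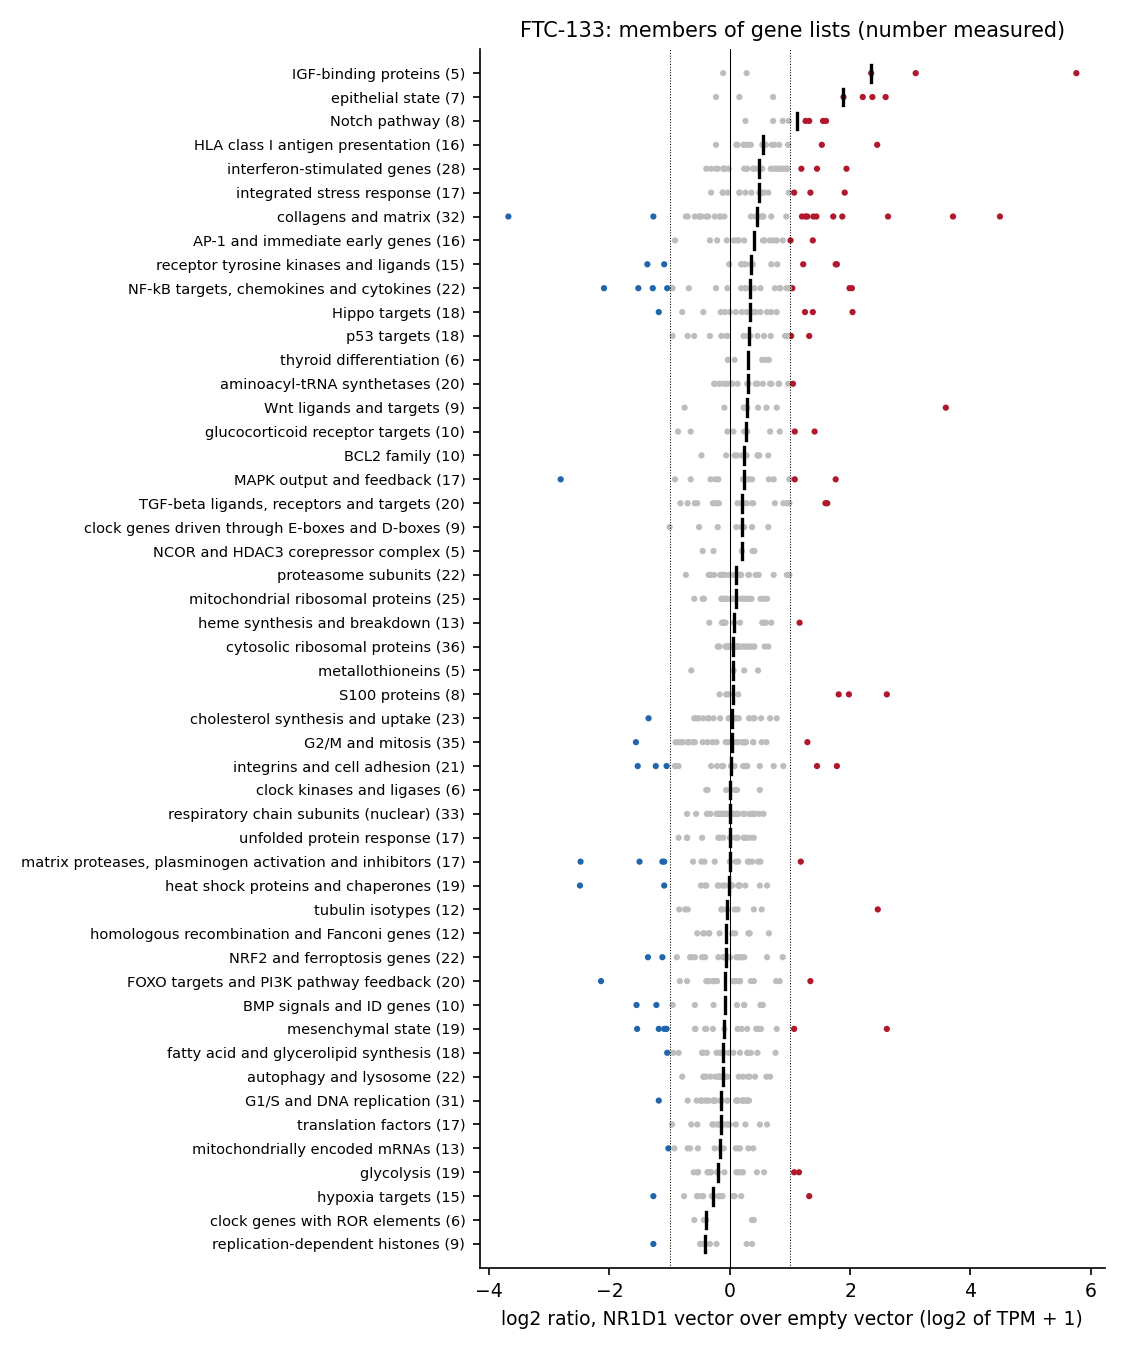
Log2 ratio of the NR1D1 vector over the empty vector in FTC-133 for the measured members of 50 gene lists, 1 point per gene, with genes past 2-fold in colour, the list median as a black bar and dotted lines at 2-fold. The IGF-binding, epithelial, Notch and HLA class I lists have the highest medians, 2.35, 1.89, 1.12 and 0.56, while the collagen, cytokine and protease lists spread to both sides.

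In some stretches of the genome neighbouring genes differed in the same direction. Over 190 windows of 10 Mb with at least 20 measured genes, window medians of the log2 ratio had an SD of 0.26 in FTC-133 and 0.13 in TPC-1. In FTC-133, 19 windows were at 0.4 or above and 9 at -0.4 or below, and in TPC-1 these counts were 2 and 1. In the first 60 Mb of chromosome 1, 373 of 411 measured genes were above 0, with a median of 0.56, while the median beyond 140 Mb was 0.11. Chromosome 15 had a median of 0.61 from 70 Mb on and 0.05 before that point. The first 40 Mb of chromosome 10 had a median of -0.48, against 0.04 from 70 Mb on. Chromosome X had a median of 0.39, with 254 of 324 genes above 0. Gene dosage was not measured, and its part in any result was not tested. With each gene's window median subtracted, 323 genes were 2-fold higher and 242 lower, and 18 of the 127 genes past 2-fold under the naming rules were no longer so, among them CCN1, HES4, SLC2A1, SLC7A5, LOX, NT5E, MMP1, ADAMTS1, BLVRA, KIF2C and MT-ND3. Where a window held under 20 measured genes, the median of the whole chromosome (for MT-ND3, the mitochondrial genome) was subtracted instead.

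**Figure D5:**
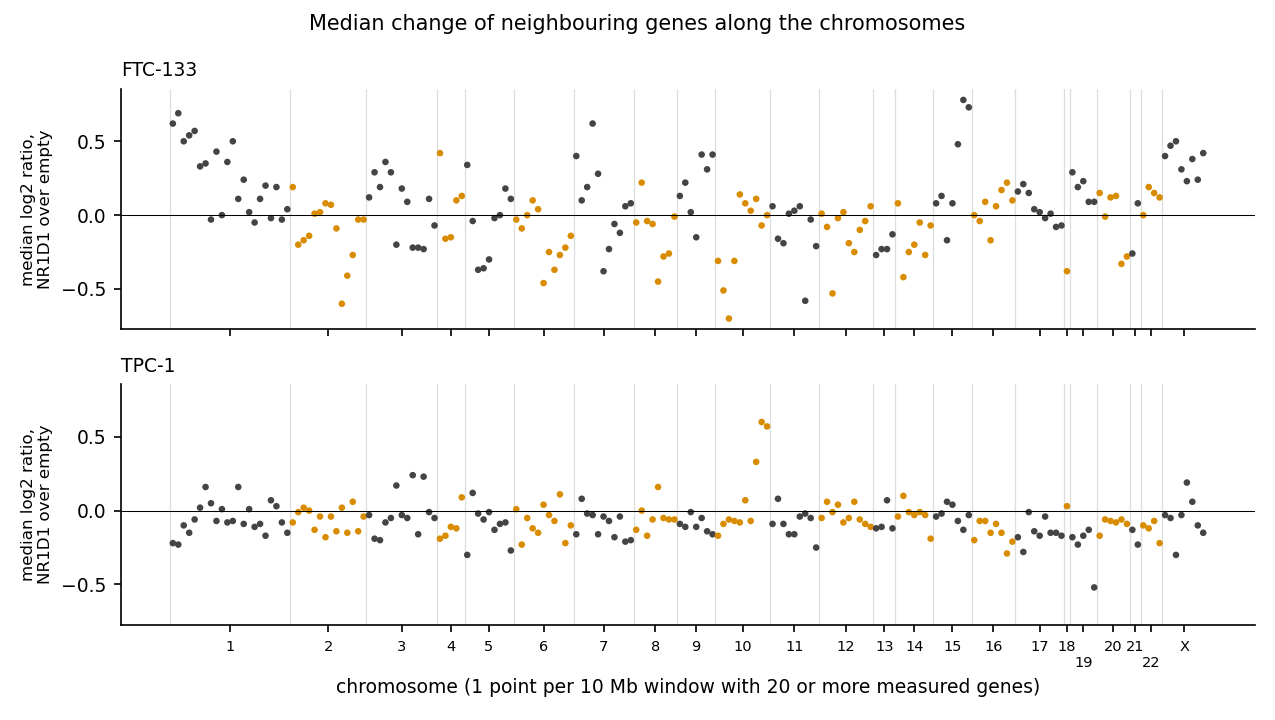
Median log2 ratio of the NR1D1 vector over the empty vector in 10 Mb windows with at least 20 measured genes, in chromosome order, for FTC-133 (top) and TPC-1 (bottom). In FTC-133 the medians run from -0.70 to 0.78 and neighbouring windows sit at similar heights on chromosomes 1, 10, 15 and X, while in TPC-1 most lie close to 0.

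Matches to the receptor's element near gene starts were few. Promoter windows (250 bases before to 50 after the RefSeq start, both strands) were found for 7823 measured genes. The letters TAGGTCA were in 1.26% of windows of genes 2-fold higher, in 0.483% of genes 2-fold lower and in 1.14% of all. The core site AGGTCA, which is contained in TAGGTCA, was in 10.1%, 9.66% and 9.09% in the same order, and the E-box CACGTG was in 7.23%, 9.18% and 10.5%. The D-box TTATGTAA was in 0.358% of all. The full ROR element was in 10 windows (0.128%), of which 2 belonged to genes past 2-fold, one in each direction.

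Those genes are shown with the element in capitals. S100A4, described above as higher, has it 29 to 19 bases before its start (chr1:153545807-153545866, the minus strand). CSE1L, an export receptor for importin alpha that was picked out by this search, has it 233 to 223 bases before its start (chr20:49046062-49046121, the plus strand), and had 82.7 TPM with the NR1D1 vector and 187 TPM with the empty vector. A match gives letters and not binding, and the window leaves out distant sites.
S100A4: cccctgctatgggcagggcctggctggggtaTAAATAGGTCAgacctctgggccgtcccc
CSE1L: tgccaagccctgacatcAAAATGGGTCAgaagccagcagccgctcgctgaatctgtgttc

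The NR1D1 vector in TPC-1 gave a small shared set of differences. NR1D1 in TPC-1 had 209 TPM with the NR1D1 vector and 190 TPM with the empty vector. Over 8698 genes measured in both lines, 258 were 2-fold higher in FTC-133 (2.97%) and 185 in TPC-1 (2.13%), and 30 were higher in both, 11.6% of the FTC-133 list and 16.2% of the TPC-1 list. Of 183 genes lower in FTC-133 (2.10%) and 160 lower in TPC-1 (1.84%), 9 were shared, 4.92% and 5.62% of these lists. In the opposite direction 12 genes were higher in FTC-133 and lower in TPC-1, 4.65% of the FTC-133 higher list. Another 10 were lower in FTC-133 and higher in TPC-1, 5.46% of the FTC-133 lower list. Genes lower in FTC-133 were thus opposite in TPC-1 about as often as they were shared.

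Shared higher genes included secreted and surface proteins. IGFBP3 had 3219 TPM in TPC-1 with the NR1D1 vector and 676 TPM with the empty vector, a log2 ratio of 2.25 beside 2.35 in FTC-133. SORT1, which encodes the sorting receptor sortilin, had log2 ratios of 2.15 in FTC-133 and 3.32 in TPC-1, SPP1, the osteopontin gene, had 4.23 and 1.77, and THBS1 had 1.72 and 2.09. GFRA1, a co-receptor for the growth factor GDNF, had 2.84 in FTC-133 and 2.56 in TPC-1, and the olfactomedin-like matrix gene OLFML2B had 1.85 and 1.91. The chemokine gene CXCL8 was lower in both lines, with 739 TPM in TPC-1 with the NR1D1 vector and 2350 TPM with the empty vector. EREG, TFPI2 and STC2, the stanniocalcin gene, were also lower in both, by log2 ratios of -2.81, -1.40 and -1.19 in FTC-133 and -1.81, -2.40 and -1.66 in TPC-1. COL4A1 and COL4A2 were within 2-fold in TPC-1, at log2 ratios of 0.71 and 0.45, and VCAM1 and AEBP1 were under 1 TPM there with both vectors. Whether any gene's difference was larger in one line than in the other was not tested.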

How the data were processed

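Total RNA (integrity number at least 6.8, per the labels) was sequenced with 1 library per vector. Per the submitters' processing notes, the authors used Trimmomatic 0.38, featureCounts 2.0.0 and the GRCh38 build. Which aligner, annotation and strand setting they used is not given in the sources used here. Although the authors named the tables TPM, the deposited columns summed to 256453.4 (NR1D1 vector) and 261469.4 (empty vector), and value times GENCODE 29 exon length summed to 1.004 and 1.005 times the total expected of FPKM. These deposited FPKM values were rescaled to a sum of 1000000, which gives TPM.

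Log2 ratios used a pseudocount of 1, which understates the differences of low genes. Protein-coding genes with a mean of at least 5 TPM were kept, and 2-fold differences were counted without a test. A gene well under that level in one library passed through the other alone and so had to differ. Reads were recovered as value times exon length over the weight of 1 read, and 72.4% and 72.2% of nonzero values came to whole numbers within 0.02, so no count model was used. Python 3.11.15, pandas 2.3.3 and scipy 1.17.1 were used, and the arithmetic was tested on simulated data.

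Named genes were the 15 per direction with the largest ratios, the 10 per direction with a mean of at least 50 TPM, up to 4 per list with at least 5 measured members, all clock, receptor, corepressor and thyroid genes, and the top 10 per direction shared with TPC-1. The members and lists were chosen with earlier results of these data known. Genes outside that rule were named after their values were seen. Alternatives covered pseudocount, filter, scaling, fold and biotype, and the subtraction of window medians was added after the data were seen. A few genes covered by that rule are not reported here.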

Additional observations from a re-analysis of the deposited data

Results flagged for a closer look

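Some genes past 2-fold in FTC-133 were past 2-fold in the opposite direction in TPC-1 under the same vector labels. This difference between the lines was not tested, since each vector had 1 library in each line. MMP2, the gelatinase gene, had a log2 ratio of -2.48 in FTC-133 and 1.75 in TPC-1, where it had 108 TPM with the NR1D1 vector and 31.3 TPM with the empty vector. CD24, a mucin-like surface protein gene, had -2.17 in FTC-133 and 1.35 in TPC-1, with 120 and 46.3 TPM there. MYL9 had -4.23 in FTC-133 and 1.01 in TPC-1, with 125 TPM with the NR1D1 vector and 61.6 TPM with the empty vector there. HES4, the Notch target, had 1.26 in FTC-133 and -1.04 in TPC-1, with 16.1 and 34.3 TPM, and HBEGF had 1.08 and -1.41, with 21.7 TPM with the NR1D1 vector and 59.3 TPM with the empty vector in TPC-1.

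Long noncoding RNAs lay outside the counts of protein-coding genes and gave strong signals in the FTC-133 NR1D1 vector library. LINC01029 had 103 TPM with the NR1D1 vector and 1.43 TPM with the empty vector, and was at 0 in both TPC-1 libraries. LINC01444 had 79.3 TPM with the NR1D1 vector and 33.7 TPM with the empty vector, and in TPC-1 it had 12.7 and 5.62 TPM.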

How the results depend on the processing

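The counts of 410 genes higher and 270 lower moved by over 1.5 times under 7 of the settings tried, and no gene past 2-fold changed sign among those named. They were 267 and 152 with a pseudocount of 5, 651 and 449 at a mean of at least 1 TPM, 94 and 60 at a mean of at least 50, 699 and 491 with no filter, 156 and 103 on the values as deposited, 1266 and 961 at 1.5-fold, and 152 and 63 at 3-fold. The genes shared with TPC-1, 30 higher and 9 lower, were 53 and 31 at a mean of at least 1, and 127 and 37 at 1.5-fold. The lists with a median past 0.5, 4 in all, were 2 with no filter, 3 at a mean of at least 50, with trimmed-mean scaling or with window medians subtracted, and 7 on the values as deposited, which also makes the filter stricter. List medians changed sign for 11 of 50 lists with window medians subtracted and for 8 at most under the other settings, and 7 named genes within 2-fold changed sign with window medians subtracted. The cause of the other moves was not tested, beyond the fold, the filter and the pseudocount that define each setting. Trimmed-mean scaling gave 350 higher and 326 lower, a median of 0 gave 363 and 310, and dropping mitochondrial genes gave 424 and 327. NR1D1 ran from 0.31 to 0.38. Of the 127 named genes past 2-fold, 11 were within it with a pseudocount of 5, 3 with trimmed-mean scaling and 18 after window medians were subtracted. No paired analysis was possible because each group had 1 library. Leaving out a library was not possible either. Depth limits genes under about 50 reads, of which 4 were past 2-fold.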

Other observations

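Long noncoding RNAs at a mean of at least 5 TPM numbered 551 in FTC-133, with a median log2 ratio of 0.11. Of these, 70 were 2-fold or more higher with the NR1D1 vector and 52 were lower, beside 4.31% and 2.84% of measured protein-coding genes. LINC02154 had 44.9 TPM with the NR1D1 vector and 1257 TPM with the empty vector, while in TPC-1 it had 5.47 and 10.6 TPM. LINC00958 had 132 TPM with the NR1D1 vector and 275 TPM with the empty vector in FTC-133, and 133 and 114 TPM in TPC-1.

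Transcripts of the mitochondrial genome had a median log2 ratio of -0.16 over 13 genes. MT-ND3, a subunit of complex I, had 2924 TPM with the NR1D1 vector and 5922 TPM with the empty vector, and MT-CYB, the cytochrome b gene, had 3598 and 6787 TPM. In TPC-1 the median over the same genes was 0.13. The glycolytic enzyme gene GAPDH, often used as a reference, had 5260 TPM in FTC-133 with the NR1D1 vector and 7973 TPM with the empty vector.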
